A study of Mus musculus with 16 samples.

Results

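The genes described are 9 subunits of the Polycomb repressive complexes, taken by symbol from the 56748 genes of the deposited expression tables: Ezh1, Ezh2, Eed and Suz12, which form the core of Polycomb repressive complex PRC2, and Rnf2, Bmi1, Cbx2, Cbx7 and Cbx8 of PRC1. RNA-Seq was done on splenic mouse CD4+ T cells of the memory type, sorted as CD25low/-, CD62L- and CD44high, in 4 samples each of HP1a KO, HP1a WT, HP1g KO and HP1g WT. HP1a and HP1g are proteins of heterochromatin, encoded by Cbx5 and Cbx3. In the HP1a line the floxed Hp1a allele had been excised with CMV-cre, which acts in every tissue, and HP1a KO and HP1a WT were homozygous mutant and wild-type littermates. In the HP1g line all mice were homozygous for the floxed Hp1g allele and the HP1g KO also carried Cd4-cre, which acts in T cells, so that Cre and the loss of HP1g cannot be told apart. Both lines were on a mixed background of 129/Sv and C57BL/6, and sex-matched littermates of 6 to 12 weeks were used. The paper reports male mice for its sequencing work. The series' design text and a treatment label speak of transferred cells, while titles and cell type labels give memory cells, and groups were taken from the titles.

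Polycomb proteins keep developmental and lineage genes silent. The catalytic subunit of PRC2, either Ezh2 or Ezh1, methylates histone H3 on a lysine, and Eed and Suz12 are needed for the complex to be stable and active. The chromodomain of a Cbx protein in canonical PRC1 reads this mark, and the RING proteins Rnf2 and Bmi1 together place ubiquitin on histone H2A. In T cells, Ezh2 is known to restrain effector cytokine programmes and rises when cells divide, while Ezh1 is typical of resting cells. The chromodomain of Cbx2, Cbx7 and Cbx8 is related to that of the HP1 proteins, which instead read methylation of another lysine.

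Estimated counts summed to between 26694045 and 40199637 per sample, and a member had between 203 and 14352 of them. Of 8 markers of CD4 memory T cells all were detected in every sample and summed to between 4264 and 4956 CPM (counts scaled to equal library size after TMM normalization over the 16 samples), against between 6.99 and 29.5 CPM for 8 B cell markers, between 5.09 and 18.5 CPM for 2 CD8 T cell markers, between 42.6 and 177 CPM for 8 myeloid markers, between 30.3 and 56.1 CPM for 4 NK cell markers and between 16.4 and 1210 CPM for 6 erythroid markers. Of the NK cell markers, Ncr1, Klra8 and Klra4 did not exceed 0.379, 0.367 and 0.0681 CPM, and the NK sum came almost wholly from Klrb1c. The regulatory T cell markers summed to between 442 and 866 CPM, with Foxp3 between 57.6 and 164 CPM. The targeted genes, counted over their whole length and so including what lies outside the deleted exons, went in the direction of the labels: Cbx5 was at 27.1 ± 2.77 CPM (SD, n = 4) in HP1a KO and 40.3 ± 9.28 CPM in HP1a WT, and Cbx3 at 47.5 ± 1.98 CPM in HP1g KO and 84.5 ± 8.66 CPM in HP1g WT. Neither pair of groups overlapped, and the change passed the adjustment over all genes for Cbx3 (log2 fold change -0.82, SE 0.0790, adjusted p = 0.00150) but not for Cbx5 (-0.58, SE 0.145, adjusted p = 0.946). In both genotypes of the HP1g line, Rnf2 was higher and Ezh1 lower in replicates 1 and 2 than in 3 and 4, and values without them are given where a result rests on them. In these bulk samples, fewer cells of a type and less RNA per cell cannot be told apart.

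The upstream sequences of the members that differed between the lines, Ezh1, Eed and Rnf2, are shown with that of Suz12, which held the motif searched for. They come from the RefSeq promoter table (GRCm39) and hold no base of an annotated exon of the gene, 5′ to 3′ on the strand of the gene, at chr11:101117316-101117539 (minus strand, 224 bases), chr7:89630218-89630434 (minus, 217 bases), chr1:151376743-151376992 (minus, 250 bases) and chr11:79883682-79883890 (plus, 209 bases). Capitals mark the motif TTTCCCGC.
Ezh1: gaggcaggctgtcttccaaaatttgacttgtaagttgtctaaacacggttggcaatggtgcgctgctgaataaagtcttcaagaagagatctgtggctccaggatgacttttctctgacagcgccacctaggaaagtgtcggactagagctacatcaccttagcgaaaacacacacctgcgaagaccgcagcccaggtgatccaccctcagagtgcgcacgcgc
Eed: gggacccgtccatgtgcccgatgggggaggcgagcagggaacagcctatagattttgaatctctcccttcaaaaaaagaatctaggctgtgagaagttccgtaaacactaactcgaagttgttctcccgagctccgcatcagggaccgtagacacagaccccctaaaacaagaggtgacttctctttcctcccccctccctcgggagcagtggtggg
Rnf2: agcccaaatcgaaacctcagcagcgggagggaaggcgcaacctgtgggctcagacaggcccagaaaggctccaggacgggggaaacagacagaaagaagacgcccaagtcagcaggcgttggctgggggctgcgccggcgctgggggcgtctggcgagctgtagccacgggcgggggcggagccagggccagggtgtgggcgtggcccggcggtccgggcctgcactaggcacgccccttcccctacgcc
Suz12: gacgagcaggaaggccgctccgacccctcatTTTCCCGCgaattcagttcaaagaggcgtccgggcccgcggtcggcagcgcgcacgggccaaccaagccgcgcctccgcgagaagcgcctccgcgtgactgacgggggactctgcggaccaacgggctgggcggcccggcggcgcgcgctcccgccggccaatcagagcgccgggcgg
The table held 8 of the members, Cbx2 being the other. The motifs TTTCCCGC, TTTGGCGC, TTTGCCGC and TTTCGCGC, the letters that E2F factors of the cell cycle are known to prefer, were searched on both strands from 250 bases before to 50 after the start. They were found in 2 of the 8, as TTTCCCGC in Suz12 at position -219 and as TTTGGCGC in Ezh2 at position 4 downstream of the start, and 2.26% of all 32851 promoters held one. The ratio of observed to expected CpG in the 250 bases before the start was between 0.652 in Eed and 1.10 in Suz12, against a median of 0.3735 over all promoters. Each of the motifs holds a CpG, so the share of 2.26% is not matched to the members, and enrichment was not tested.

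Of the 9 members, all were transcribed in these cells, at levels that spanned from Cbx2 at the bottom to Cbx7 and Eed at the top. Levels of different genes are compared in TPM (the authors' values scaled by transcript length and library size). Cbx7, the chromodomain subunit typical of resting and stem cells, had a median of 153 TPM over the 16 samples (from 99.8 to 190). Eed, the PRC2 subunit that binds the methylated tail, had a median of 145 TPM (from 115 to 184), and the ranges of the pair overlapped. Their order turned with the line. Means of Cbx7 and Eed were 174 and 126 TPM in HP1a KO and 158 and 128 TPM in HP1a WT. They were 144 and 172 TPM in HP1g KO and 125.5 and 154 TPM in HP1g WT. No sample of any other member reached the lowest sample of Eed. Rnf2, the catalytic RING protein of PRC1, had a median of 52.9 TPM (from 40.2 to 69.5), Suz12 of 52.1 TPM (from 41.1 to 64.6), Ezh2 of 51.1 TPM (from 40.3 to 73.0) and Ezh1 of 44.0 TPM (from 28.3 to 51.2). These 4 ranges overlapped each other and the order of the medians did not exceed the spread over samples, although Ezh2 was above Ezh1 within every sample. Bmi1, the partner of Rnf2, followed with a median of 30.6 TPM (from 19.9 to 36.7), overlapping Ezh1. Cbx8 had a median of 13.7 TPM (from 10.0 to 20.2) and Cbx2 of 3.27 TPM (from 2.22 to 5.01). The highest Cbx8 sample just exceeded the lowest of Bmi1, and no sample of Cbx2 reached the lowest of Cbx8. The ratio of Ezh1 to Ezh2 in TPM was under 1 in every sample, with means of 0.813 ± 0.0635 (SD, n = 4) in HP1a KO, 0.798 ± 0.114 in HP1a WT, 0.790 ± 0.0564 in HP1g KO and 0.755 ± 0.117 in HP1g WT. These ranges overlapped between all 4 groups.

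**Figure D1:**
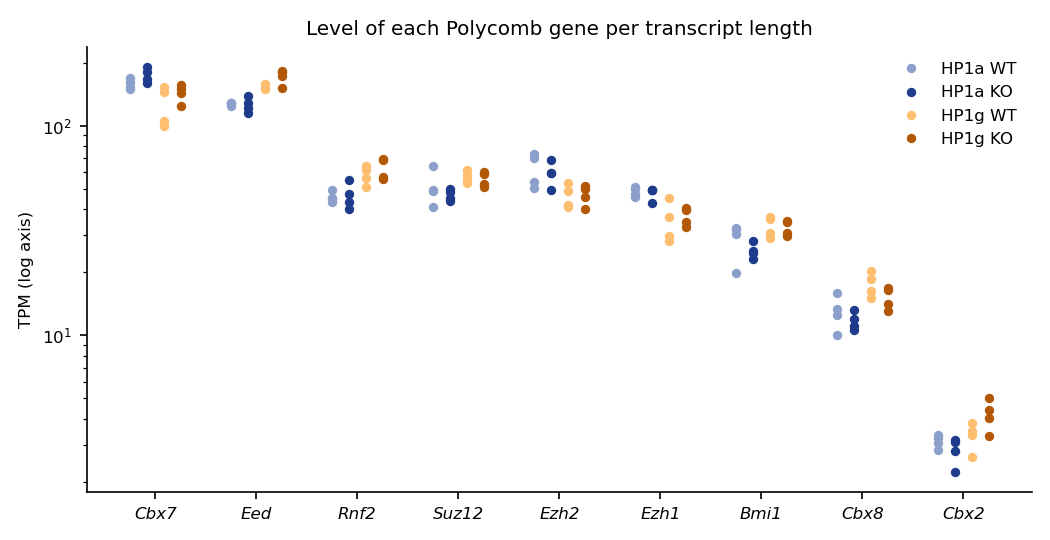
Level of each of the 9 Polycomb genes in TPM (vertical log axis), with 1 point per sample and 4 samples per group, genes ordered by their median over the 16 samples. Cbx7 and Eed lie at medians of 153 and 145 TPM, Cbx2 at 3.27 TPM.

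The members lie on 6 chromosomes of GRCm39. Ezh1 (ENSMUSG00000006920) spans chr11:101081934-101117315, Suz12 (ENSMUSG00000017548) chr11:79883891-79925421, Cbx2 (ENSMUSG00000025577) chr11:118913788-118922100 and Cbx8 (ENSMUSG00000025578) chr11:118927131-118931795. Ezh2 (ENSMUSG00000029687) spans chr6:47507073-47572331, 3.88 Mb from the targeted Cbx3, and Eed (ENSMUSG00000030619) chr7:89603862-89630217. Rnf2 (ENSMUSG00000026484) spans chr1:151333755-151376729, Bmi1 (ENSMUSG00000026739) chr2:18681292-18691441 and Cbx7 (ENSMUSG00000053411) chr15:79800001-79855320, 23.2 Mb from the targeted Cbx5. All are annotated as protein-coding. Ezh1 overlaps Cntnap1, Eed the lncRNA E230029C05Rik and Cbx7 Apobec3, each on the opposite strand, and the libraries were stranded but whether counting used strand is not given in the sources used here. Bmi1 shares at least 150 nt at 98% identity or more with the processed pseudogene Gm6248, so that its counts are uncertain to that extent.

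HP1a KO was compared with HP1a WT to see whether the loss of HP1a changed transcription of the Polycomb genes. No member passed the test. The quasi-likelihood test of edgeR, adjusted by Benjamini-Hochberg over all genes, called 0 of 14881 genes (0.0%) at an adjusted p of 0.05, and 635 genes (4.27%) but 0 of the 9 members had an unadjusted p under 0.05. DESeq2 called 5 genes and no member. KO and WT samples overlapped for all 9 members, while they did not for 2.96% of all genes. The member with the smallest p was Suz12, which holds PRC2 together. It was at 115, 111, 96.2 and 118 CPM in HP1a KO and at 123, 150, 106 and 121 CPM in HP1a WT, and the groups overlapped although WT replicate 2 was the highest. Its log2 fold change was -0.18 (SE 0.103, 95% interval -0.41 to 0.05, adjusted p = 0.946).

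Ezh1, the alternative methyltransferase of PRC2, had nearly equal means in KO and WT of the HP1a line. It was at 110, 110, 107 and 111 CPM in HP1a KO and at 113, 107, 112 and 106 CPM in HP1a WT, with a log2 fold change of 0.00 and the narrowest interval of the 9, from -0.10 to 0.11. Ezh2 was at 65.5, 60.9, 57.9 and 66.7 CPM in HP1a KO and at 70.1, 77.9, 64.3 and 60.2 CPM in HP1a WT, a log2 fold change of -0.12 with an interval from -0.31 to 0.07. Eed (log2 fold change -0.05), Rnf2 (-0.04), Bmi1 (-0.13), Cbx2 (-0.07) and Cbx8 (-0.05) had lower means in HP1a KO and Cbx7 a higher one (0.11), all with intervals that included 0. Over the 9 members the intervals reached from -0.41 (Suz12) to 0.26 (Cbx7). The median log2 fold change was -0.05 over the members and 0.00 over all genes tested. Base composition moved with this comparison: the median log2 fold change was -0.11 in the quintile of genes with the lowest transcript GC content, under 43.8%, which holds Suz12, Bmi1 and Rnf2, and 0.06 in the quintile with the highest, above 54.7%, which holds Cbx2, Cbx7 and Cbx8. With an offset for GC content, chosen after seeing the data, Suz12 was at -0.08, Bmi1 at -0.03 and Rnf2 at 0.07. Summed naive T cell markers were higher in HP1a KO (1878 ± 51.8 CPM, SD, n = 4) than in HP1a WT (1708 ± 64.2 CPM) in every sample (exact two-sided permutation test p = 0.0286, the smallest that 4 against 4 allow, and 0.229 after adjustment over 40 such tests). The 22 proliferation markers had a median log2 fold change of -0.28, and their sums, 1207 ± 110 CPM in HP1a KO and 1368 ± 166 CPM in HP1a WT, overlapped. The part of either set of markers in the values of the members was not tested.

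HP1g KO was compared with HP1g WT in the same way, and again no member passed. Here 49 of 14975 genes (0.327%) had an adjusted p under 0.05, and 1784 genes (11.9%) but 0 members had an unadjusted p under 0.05. Groups overlapped for all 9 members, while 7.11% of all genes had groups that did not overlap. Cbx7 had the smallest p. It was at 323, 277, 329 and 312 CPM in HP1g KO and at 230, 227, 309 and 314 CPM in HP1g WT, so that the low values were those of WT replicates 1 and 2. Its log2 fold change was 0.21 (SE 0.119, 95% interval -0.06 to 0.47, adjusted p = 0.509). Replicates 3 and 4 of this line alone, an alternative chosen after seeing the data, gave 0.04.

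Ezh2, on the same chromosome as the targeted gene, was at 45.8, 49.5, 56.4 and 59.4 CPM in HP1g KO and at 55.1, 56.3, 57.8 and 61.3 CPM in HP1g WT. Each KO value was below the WT value of the same number, and the groups overlapped (log2 fold change -0.12, SE 0.0864, 95% interval -0.31 to 0.08, adjusted p = 0.613). Cbx2, the chromodomain subunit with the fewest counts, was at 8.42, 9.84, 7.09 and 8.78 CPM in HP1g KO and at 6.68, 7.67, 7.60 and 8.81 CPM in HP1g WT, a log2 fold change of 0.16 with an interval from -0.14 to 0.46. On replicates 3 and 4 alone Cbx2 was at -0.05 and Cbx8, at -0.13 with all samples, at 0.04. Ezh1 (-0.01), Rnf2 (-0.01), Suz12 (-0.07), Bmi1 (-0.06), Cbx8 (-0.13) and Eed (0.09) also had intervals that included 0. The median log2 fold change was -0.01 over the members and 0.00 over all genes tested. The summed proliferation markers were lower in HP1g KO (1221 ± 58.1 CPM, SD, n = 4) than in HP1g WT (1339 ± 113 CPM) in every sample, with p = 0.0286 by the exact two-sided permutation test and 0.229 after the same adjustment. Erythroid markers summed to between 82.0 and 1210 CPM in HP1g KO and to between 45.9 and 531 CPM in HP1g WT. The part of these markers in the value of Ezh2 was not tested.

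**Figure D2:**
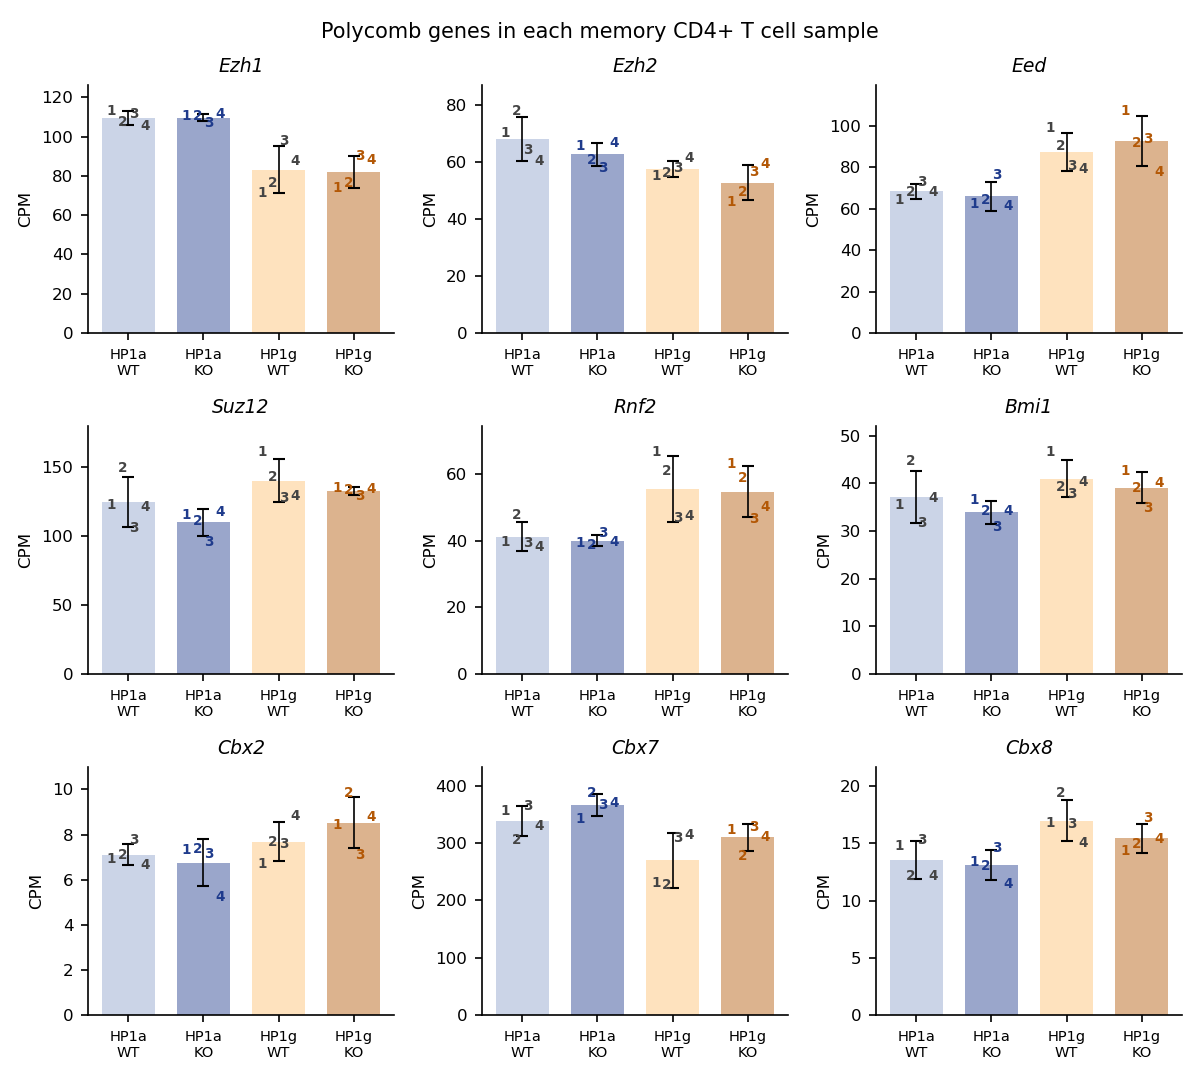
CPM of each Polycomb gene (vertical axes from 0) in the 4 groups. Bars are means, error bars SD (n = 4), and the digits give each sample by its replicate number. For Ezh1 the 8 samples of the HP1a line lie between 105.5 and 113 CPM, above the 8 of the HP1g line, between 71.3 and 97.6 CPM.

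Whether the 2 knockouts differed in effect was asked with an interaction term in a fit of all 16 samples. Of 15776 genes, 8 (0.0507%) passed, and no member was among them. The log2 differences of the members, HP1a line minus HP1g line, were between -0.22 for Cbx2 (SE 0.185, 95% interval -0.61 to 0.17) and 0.09 for Cbx8 (SE 0.150, 95% interval -0.23 to 0.40), with adjusted p from 0.755 to 0.995.

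More genes passed between the WT samples of the lines than between KO and WT within either line. Ezh1 was higher in HP1a WT, and Eed and Rnf2 were lower. These were 3 of 9 members, beside 1896 of 14804 genes (12.8%) that passed an adjusted p of 0.05 in this comparison. Ezh1 was at 113, 107, 112 and 105.5 CPM in HP1a WT and at 71.3, 76.2, 97.6 and 87.8 CPM in HP1g WT. The groups did not overlap, and the difference was 1.31-fold (log2 0.39, SE 0.0967, adjusted p = 0.0277, exact two-sided permutation test p = 0.0286). Eed was at 64.2, 67.9, 72.7 and 68.2 CPM in HP1a WT and at 99.1, 90.4, 80.7 and 79.2 CPM in HP1g WT. Again no sample overlapped, and Eed was 1.28-fold higher in HP1g WT (log2 -0.36, SE 0.0835, adjusted p = 0.0231). Rnf2 was at 39.6, 47.6, 39.3 and 38.2 CPM in HP1a WT and at 66.6, 60.9, 46.8 and 47.6 CPM in HP1g WT. HP1a WT replicate 2 lay within the range of HP1g WT, and the log2 difference was -0.43 (SE 0.122, adjusted p = 0.0435). Groups did not overlap for 2 of the 9 members and for 19.5% of all genes.

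The 3 calls depended on which samples were kept. Without HP1g WT replicates 1 and 2, an alternative chosen after seeing the data, no member passed, and the log2 differences were 0.24 for Ezh1, -0.23 for Eed and -0.20 for Rnf2 (adjusted p = 0.203, 0.220 and 0.407). For Ezh1 and Eed, leaving out HP1a WT replicate 1 (adjusted p = 0.0873 and 0.0819), replicate 2 (0.0511 and 0.0520) or replicate 4 (0.0510 and 0.0566), or HP1g WT replicate 1 (0.0713 and 0.0685) or replicate 2 (0.0800 and 0.0728), ended the call. For Rnf2, leaving out HP1a WT replicate 1 (0.121), 3 (0.0890) or 4 (0.112), or HP1g WT replicate 1 (0.131) or 2 (0.134), did so. With each sample left out, the log2 differences were between 0.33 and 0.48 for Ezh1, -0.40 and -0.29 for Eed, and -0.50 and -0.33 for Rnf2. The genes called in all, 1896 with every sample, were then between 573 and 2185, and 134 without HP1g WT replicates 1 and 2. A lost call is therefore not particular to these members. The direction of the 3 differences held in each of their 18 alternatives.

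The other members did not pass between the WT groups. Cbx7 was at 356, 305, 364 and 330 CPM in HP1a WT, with only HP1g WT replicates 3 and 4 reaching that range (log2 0.33, SE 0.120, adjusted p = 0.0963). Ezh2 had a log2 difference of 0.24 (SE 0.0834, adjusted p = 0.0824) and Cbx8 of -0.33 (SE 0.116, adjusted p = 0.0878), and the intervals of these 3 genes excluded 0 before adjustment. Suz12 (-0.17), Bmi1 (-0.14) and Cbx2 (-0.11) had intervals that included 0. DESeq2 and the fit of all 16 samples added Cbx7 (adjusted p = 0.0486 and 0.0376) and Cbx8 (0.0495 and 0.0475), which made 5 members. The genes called in all rose as well, from 1896 to 2835 with DESeq2 and to 2537 with the fit of all 16 samples.

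The KO samples of the lines, which share no sample with the WT groups, were set side by side with them. There 5 of 9 members passed, beside 4921 of 15020 genes (32.8%). Ezh1 was at 110, 110, 107 and 111 CPM in HP1a KO and at 73.6, 76.3, 90.2 and 88.2 CPM in HP1g KO (log2 0.42, SE 0.0740, adjusted p = 0.00338). Eed was at 62.3, 64.1, 76.1 and 61.2 CPM and at 107, 91.6, 93.6 and 77.5 CPM (log2 -0.49, SE 0.104, adjusted p = 0.00706). Rnf2 was at 39.3, 38.9, 42.5 and 39.6 CPM and at 63.1, 59.0, 46.4 and 50.3 CPM (log2 -0.45, SE 0.0948, adjusted p = 0.00669). Suz12 (-0.27, SE 0.0687, adjusted p = 0.0141) and Cbx7 (0.24, SE 0.0683, adjusted p = 0.0213) were the others, and the groups of these 5 genes did not overlap, as for 32.3% of all genes. The sign of the difference was that of the WT comparison for all 9 members. This comparison holds the loss of HP1a in one group and that of HP1g with Cd4-cre in the other. Over all samples, the 8 of the HP1a line and the 8 of the HP1g line did not overlap for Ezh1 and Eed, and for 8.84% of all genes. Line and the handling of its samples cannot be told apart. Without HP1g KO replicates 1 and 2, an alternative chosen after seeing the data, only Ezh1 of the 9 passed (log2 0.31, adjusted p = 0.0253), with Eed at -0.37 (adjusted p = 0.0702) and Rnf2 at -0.27 (0.0504), and the genes called fell from 4921 to 1560 in all. Leaving out HP1a KO replicate 2 (adjusted p = 0.0627) or 4 (0.0520) or HP1g KO replicate 2 (0.0574) ended the call of Cbx7. Between the KO groups, mitochondrially encoded transcripts summed to 17260 ± 1875 CPM (SD, n = 4) in HP1a KO and 23330 ± 2108 CPM in HP1g KO, and naive T cell markers to 1878 ± 51.8 and 1753 ± 53.0 CPM, without overlap of the samples in either (exact permutation test p = 0.0286 each, 0.229 after adjustment over the 40 tests). Erythroid markers summed to between 35.4 and 187 CPM in HP1a KO and between 82.0 and 1210 CPM in HP1g KO (p = 0.0857 by the exact permutation test, adjusted 0.343), and 5 of the 5 tested were lower in HP1a KO at an adjusted p under 0.05, among them Alas2 (log2 -3.75, adjusted p = 0.00888). Of 8 myeloid markers 2 were lower, among them Siglech (log2 -1.89, adjusted p = 0.00846). The part of these markers in the differences was not tested.

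**Figure D3:**
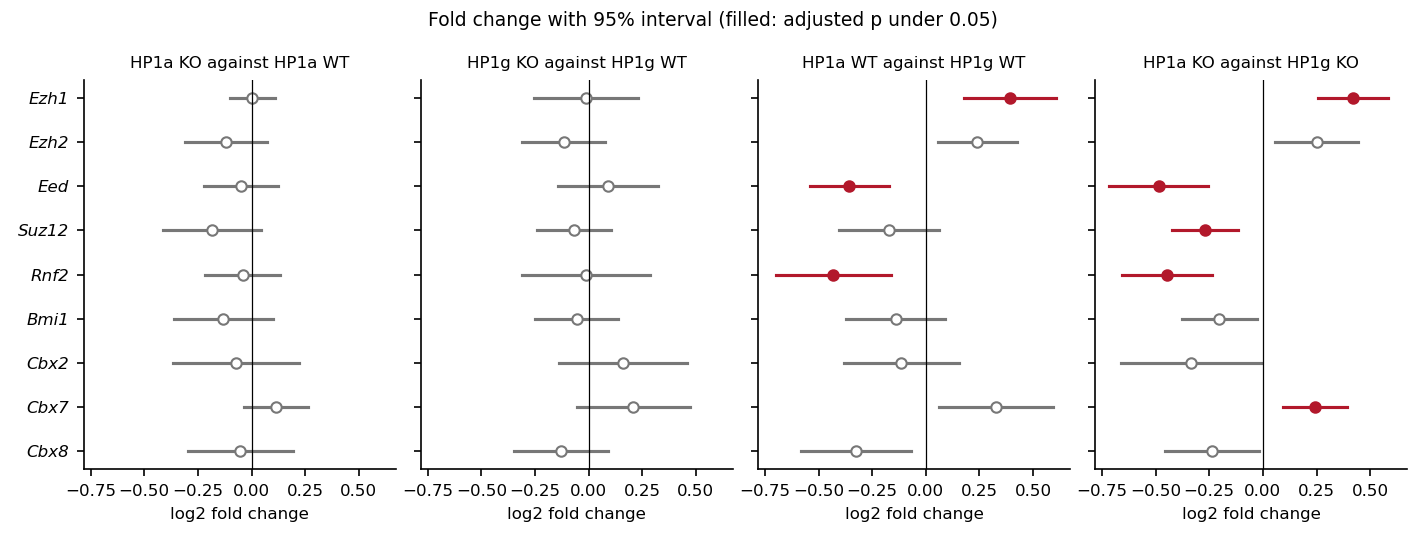
Log2 fold change (horizontal axis, same scale in each panel) of the 9 Polycomb genes in 4 comparisons, with 95% intervals. Filled points passed an adjusted p of 0.05: none between KO and WT, 3 between the WT groups and 5 between the KO groups.

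The replicates of the HP1g line parted for Rnf2. Replicates 1 and 2 were at 66.6 and 60.9 CPM in HP1g WT and at 63.1 and 59.0 CPM in HP1g KO, while replicates 3 and 4 were at 46.8 and 47.6 CPM and at 46.4 and 50.3 CPM. Ezh1 went the other way, with 71.3 and 76.2 CPM against 97.6 and 87.8 CPM in HP1g WT, and 73.6 and 76.3 CPM against 90.2 and 88.2 CPM in HP1g KO. These samples were told apart after their values were seen, and no test was made of them.

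Transcript GC content is 41.5% for Rnf2, 41.8% for Bmi1, 41.9% for Suz12, 54.8% for Cbx8, 56.4% for Cbx7 and 57.7% for Cbx2. Between the WT groups the median log2 difference was -0.04 in the quintile of lowest GC content and 0.04 in that of highest. With the offset for GC content, the same 3 members passed, with log2 differences of 0.36 for Ezh1, -0.36 for Eed and -0.38 for Rnf2 (adjusted p = 0.0246, 0.0182 and 0.0287).

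Some of the other genes of the Polycomb pathway were, like Eed and Rnf2, lower in HP1a WT than in HP1g WT. Of 44 other subunits of PRC2 and PRC1 and erasers of their marks, 40 were tested, and 11 (27.5%) were lower and 0 higher in HP1a WT at an adjusted p under 0.05, beside 12.8% of all genes in either direction. Their median log2 difference was -0.04, against 0.02 over all genes. Without HP1g WT replicates 1 and 2, an alternative chosen after seeing the data, 1 gene was lower and 0 higher, with 134 genes called in all. With 1 sample left out the lower genes numbered 3 without HP1a WT replicate 1 or HP1g WT replicate 1 (573 and 613 genes called in all). They numbered 4 without HP1g WT replicate 2 (626 in all), 6 without HP1a WT replicate 2 (1101) and 7 without HP1g WT replicate 3 (1782). Up to 2 genes were higher with 1 sample left out. The replicate block gave 3 lower and 0 higher (577 in all). DESeq2 and the fit of all 16 samples each gave 12 lower and 2 higher (2835 and 2537 in all). With the KO samples, 14 of the 40 were lower and 6 higher (50.0%), beside 32.8% of all genes in either direction. Of the PRC2 accessory subunits, Jarid2, which helps bring PRC2 to its sites, was at 126 ± 6.43 CPM (SD, n = 4) in HP1a WT and 179 ± 16.8 CPM in HP1g WT (log2 -0.51, SE 0.0755, adjusted p = 0.00437). Aebp2, found in the same form of PRC2, had a log2 difference of -0.36 (SE 0.0813, adjusted p = 0.0213).

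Of the 23 other PRC1 subunits tested 5 passed, all lower in HP1a WT, beside 12.8% of all genes in either direction. Rybp, which takes the place of a Cbx protein in variant PRC1, was at 43.7 ± 3.32 CPM (SD, n = 4) in HP1a WT and 97.2 ± 17.6 CPM in HP1g WT (log2 -1.16, SE 0.122, adjusted p = 0.00120), and its 8 samples of the HP1a line, up to 61.9 CPM, lay below the 8 of the HP1g line, from 79.3 CPM. Its paralogue Yaf2 differed by -0.38 (SE 0.0833, adjusted p = 0.0179). Kdm2b, which binds unmethylated CpG islands, differed by -0.75 (SE 0.185, adjusted p = 0.0278) and Bcor, of a variant PRC1, by -0.24 (SE 0.0693, adjusted p = 0.0485).

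Of the 8 erasers tested 4 passed, all lower in HP1a WT, beside 12.8% of all genes in either direction. Kdm6b, a demethylase that removes the mark of PRC2, was at 805 ± 217 CPM (SD, n = 4) in HP1a WT and 1374 ± 40.5 CPM in HP1g WT (log2 -0.77, SE 0.168, adjusted p = 0.0177). Kdm6a, its relative on the X chromosome, differed by -0.27 (SE 0.0694, adjusted p = 0.0330). Usp16 (-0.42, SE 0.0785, adjusted p = 0.0100) and Mysm1 (-0.28, SE 0.0811, adjusted p = 0.0474) remove ubiquitin from histone H2A. Within the lines, 0 of the 40 passed. At an unadjusted p under 0.05, 1 of the 40 was higher in HP1a KO, beside 4.27% of all genes in either direction. In HP1g KO 3 of the 40 were higher and 2 lower, beside 11.9% of all genes in either direction.

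**Figure D4:**
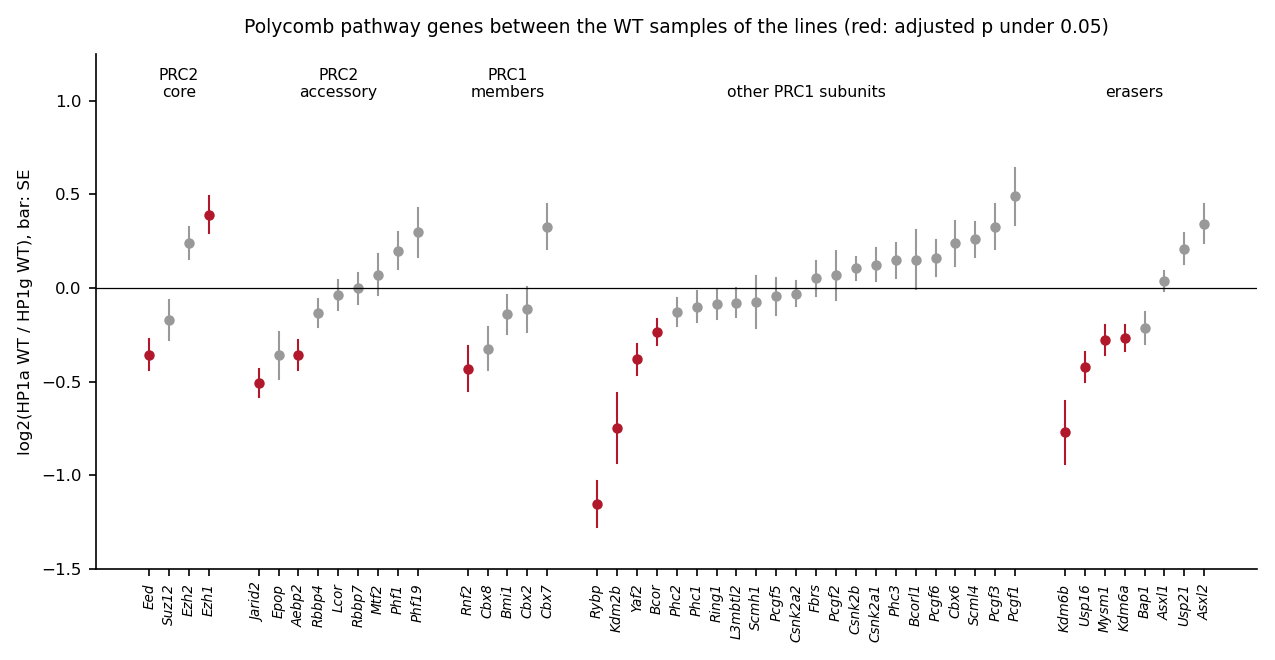
Log2 difference between HP1a WT and HP1g WT (vertical axis) of the 9 Polycomb genes and 39 of the 40 other pathway genes tested, grouped by role, with bars of 1 SE. Red points passed an adjusted p of 0.05. Of the other pathway genes plotted 10 passed, all with lower levels in HP1a WT, Rybp with the largest difference of -1.16.

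Of 46 textbook targets of Polycomb, among them 39 Hox genes, 37 stayed under 1 CPM in every sample, and 9 were tested in the HP1a line, 11 in the HP1g line and 11 between the WT groups. Within the lines 0 passed an adjusted p of 0.05. At an unadjusted p under 0.05, which 11.9% of all genes passed in the HP1g line in either direction, 3 of the 11 were lower in HP1g KO, namely Il4 (log2 -0.85, SE 0.241, adjusted p = 0.251), Eomes (-0.57, SE 0.192, adjusted p = 0.332) and Hoxd1 (-1.29, SE 0.551, adjusted p = 0.400). Hoxd1 was at 0.28 CPM in HP1g KO and 0.71 CPM in HP1g WT. It passed the filter on low counts only in comparisons that hold HP1g WT. Its direction was favoured by that filter, and its place in a count of 3 is no support. Between the WT groups 3 of 11 were lower in HP1a WT at an adjusted p under 0.05, beside 12.8% of all genes in either direction. Eomes, a T-box factor of effector and memory cells, was at 16.2 ± 1.42 CPM (SD, n = 4) against 26.0 ± 4.58 CPM in HP1g WT (log2 -0.68, SE 0.126, adjusted p = 0.00961). Cdkn2b, an inhibitor of the cell cycle, was at 1.40 ± 0.299 CPM against 3.17 ± 0.711 CPM (log2 -1.18, SE 0.241, adjusted p = 0.0142), and Hoxd1, under 1 CPM on average in both groups, also passed (adjusted p = 0.00352). Hoxd1, at 0.039 CPM in HP1a WT, entered this comparison through HP1g WT, so its direction is again no support.

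Among the HP1 genes, Cbx1, which encodes the isoform that was not targeted, was higher in HP1a WT than in HP1g WT (30.7 ± 3.80 against 23.1 ± 1.17 CPM, SD, n = 4, log2 0.41, SE 0.0918, adjusted p = 0.0199). Summed memory T cell markers were lower in HP1a WT (4345 ± 88.1 CPM) than in HP1g WT (4708 ± 146 CPM) in every sample (exact two-sided permutation test p = 0.0286, adjusted over the 40 tests 0.229), and 2 of the 8 genes passed, Cd28 (513 against 774 CPM, log2 -0.60, SE 0.0886, adjusted p = 0.00428) and Cd44 (284 against 361 CPM, -0.35, SE 0.0660, adjusted p = 0.0104). The median log2 difference of the 8 was -0.02, with Trac at -0.01, Cd5 at -0.02 and Cd3d at 0.10. Their part in the differences of the members was not tested. The sums of the proliferation markers were 1368 ± 166 and 1339 ± 113 CPM (exact permutation test p = 0.8), while Pcna was lower (log2 -0.33, SE 0.0742, adjusted p = 0.0191) and Dnmt1 higher in HP1a WT (0.32, SE 0.0893, adjusted p = 0.0415). The sum is weighted by abundant genes, and the median log2 difference of the 22 proliferation markers was 0.27, against 0.02 over all genes. The part of proliferation in the differences of the members was not tested.

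Within 250 kb of a member, 0 genes passed within the lines. Between the WT groups, Gm45222 near Eed (log2 0.54), Crlf3 near Suz12 (0.42) and Trmt1l near Rnf2 (0.57) were higher in HP1a WT, each opposite in sign to the member it lies near (Suz12 itself, at -0.17, did not pass). Josd1 (-0.40) and Apobec3 (0.55), which overlaps Cbx7 on the opposite strand, lay near Cbx7. None of the 25 genes tested around Ezh1 passed.

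Within groups, each member had genes whose levels went along with it over the 16 samples after the group means were subtracted, among 9745 genes with a mean of at least 5 CPM. The values are descriptive, since samples share depth and base composition. Ezh2 was most like Pbrm1, Cbx5 and Gng2 (Pearson r 0.93, 0.93 and 0.92), and Cbx5 is the gene of HP1a. Among the members themselves, Rnf2 and Ezh1 were opposed (-0.89) and Suz12 went along with Bmi1 (0.89). Rnf2 was most like Matr3 (0.96), Stt3a and Nus1 (0.95 each), Suz12 like Aftph (0.96), Ap3s1 and Tcea1 (0.94 each), Bmi1 like Far1 (0.92), Yme1l1 (0.92) and Mesd (0.90), and Eed like Tfb2m, N4bp2l2 and Tor1aip2 (0.95 each). Ezh1 was most like Mroh1, Sugp2 (0.95 each) and Fbxl20 (0.94), Cbx7 like Emc1 (0.95), Vps16 (0.93) and Gigyf1 (0.91), Cbx8 like Arhgap21 (0.88), Lgals3 (0.87) and Atp5h (0.86), and Cbx2, with the fewest counts, like Slc43a1, Fchsd1 (0.76 each) and Pip4k2c (0.73).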

How the data were processed

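An nf-core pipeline was used by the authors, with Trim Galore for trimming, STAR for alignment to GRCm39 and Salmon for quantification. The methods name 1 HP1g library that was left out of their analysis for abnormal GC content, exonic share and 5′-3′ bias, and the labels used here do not tie that name to a sample. The authors deposited estimated counts per gene without normalization, of which 11.55% were not whole, and TPM, which keep no depth. Here the estimated counts were rounded. Groups were compared with R 4.3.3 and edgeR 4.0.16 (TMM, filterByExpr with a minimum count of 10, quasi-likelihood test, Benjamini-Hochberg adjustment over all genes tested), each KO with its own WT, WT with WT, KO with KO, and the interaction over 16 samples. All 9 members passed the filter. Log2 fold changes are the first group minus the second. Alternatives were DESeq2 1.42.0, RLE size factors, no filter, 1 fit of the 16 samples, a block for the replicate number, limma 3.58.1 on log2(TPM + 1) and on log2(TPM + 0.1), and each sample left out in turn. The tests were tested on simulated data. In the HP1g line, KO and WT samples of the same number, taken from the titles, deviated together (r between 0.162 and 0.348, mean 0.24, over 9745 genes). No source used here states that samples of the same number were handled together, so pairing is not established. In the HP1a line r was between 0.00 and 0.61, mean 0.32, and between the WT groups between -0.22 and -0.04.

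Libraries held at least 26694045 estimated counts, and intervals on fold changes cover the spread between samples. Nothing states that replicates came from separate animals, and p-values then measure only the spread between these samples. No pair of replicates, of 24, agreed within sampling noise (chi-square per degree of freedom at least 10.4). Genes were named by a rule: the members, the HP1 genes, genes of the other lists with an adjusted p under 0.05 or the smallest p, the 3 genes most like each member, and called genes within 250 kb of one. A gene of the pathway list is counted but not reported here by name. The members and lists were chosen with earlier results of these data known. A GENCODE annotation (GRCm39) that holds 56017 of the genes gave the coordinates.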

Additional observations from a re-analysis of the deposited data

Results flagged for a closer look

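Within the groups of 4, the gap of the highest or lowest sample to its nearest neighbour was divided by the range of the group, and 2 of 36 combinations of member and group exceeded Dixon's 95% critical value, where chance gives about 1 group in 20. Rnf2 in HP1a WT replicate 2 was at 47.6 CPM, with the other samples of that group between 38.2 and 39.6 CPM. Cbx2 in HP1a KO replicate 4 was at 5.23 CPM, with the other samples between 7.12 and 7.35 CPM. Without that sample the log2 fold change of Cbx2 between HP1a KO and HP1a WT was 0.03 in place of -0.07, and it passed the test with neither.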

How the results depend on the processing

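No member passed between KO and WT of either line, or in the interaction, under any alternative, each omitted sample included. Between the KO groups the 5 members became 6 with DESeq2, 5 with the block, between 4 and 7 with each sample left out, and 1 without HP1g KO replicates 1 and 2. The genes called in all went from 4921 to 5426, 4132, between 3350 and 5202, and 1560 in these fits. Between the WT groups the 3 members became 5 with DESeq2 or with all 16 samples in one fit, beside 2835 and 2537 genes in all. They became 5 with the KO samples in place of the WT samples, 0 with the replicate block (adjusted p = 0.0611 for Ezh1, 0.0797 for Eed and 0.0623 for Rnf2), 0 without HP1g WT replicates 1 and 2, and between 0 and 4 with each sample left out. These WT samples are of different lines, and nothing states that the numbers pair them. In the HP1g line the block changed no call of a member. On TPM, Ezh1 missed the threshold between the WT groups (adjusted p = 0.0516 and 0.0504).

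Fold changes of members that passed no test changed sign. In the HP1a line limma on TPM (pseudocounts 1 and 0.1) gave -0.023 and -0.023 for Ezh1 and 0.019 and 0.019 for Rnf2, and the GC offset -0.015 and 0.069. In the HP1g line limma gave 0.094 and 0.096 for Ezh1, 0.021 and 0.022 for Ezh2 and 0.099 and 0.10 for Rnf2, and replicates 3 and 4 alone gave 0.033 for Suz12, 0.036 for Rnf2, -0.045 for Cbx2 and 0.036 for Cbx8. In the interaction limma gave -0.12 and -0.12 for Ezh1 and -0.078 and -0.079 for Ezh2. With each sample left out, the ranges that crossed 0 were, in the HP1a line, -0.014 to 0.021 for Ezh1, -0.077 to 0.036 for Rnf2, -0.12 to 0.033 for Cbx2 and -0.11 to 0.0097 for Cbx8. In the HP1g line they were -0.082 to 0.077 for Ezh1, -0.088 to 0.084 for Rnf2 and -0.099 to 0.0082 for Bmi1, and in the interaction -0.059 to 0.093 for Ezh1, -0.055 to 0.077 for Ezh2, -0.12 to 0.056 for Rnf2 and -0.13 to 0.034 for Bmi1. The cause was not tested.

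The genes called moved by more than 1.5 times from 0 to 5 (DESeq2), 1 (no filter), 1 and 1 (TPM), 3 (without HP1a WT replicate 3) and 1 (without HP1a WT replicate 4) in the HP1a line, from 49 to 255 (DESeq2), 96 (all samples), 28 and 32 (TPM), 30 and 32 (without HP1g KO replicate 1 or 2) and 5 (replicates 3 and 4) in the HP1g line, from 1896 to 577 (block), 1175 and 1210 (TPM), 573, 1101 and 1040 (without HP1a WT replicate 1, 2 or 4), 613 and 626 (without HP1g WT replicate 1 or 2), 134 (without both) and 4921 (KO samples) between the WT groups, from 4921 to 1560 (without HP1g KO 1 and 2) between the KO groups, and from 8 to 72 (DESeq2), 14 (no filter), 13 (block) and 4 (TPM + 0.1) in the interaction. Summed marker lists without overlap numbered 1 in the HP1a line, 1 in the HP1g line and 1 between the WT groups, and 1 to 3, 1 to 2 and 1 to 2 with each sample left out. Of the 9 members, 6 kept their rank when the mean TPM took the place of the median.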
